A study of Mus musculus with 18 samples.

Results

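The T cell receptor complex and its coreceptors were followed through 10 genes, chosen by symbol as a readout of T cell content: the CD3 chains Cd3d, Cd3e and Cd3g, the zeta chain Cd247, the coreceptors Cd8a, Cd8b1 and Cd4, the surface proteins Cd2 and Cd5, and the kinase Lck. They were 10 of the 50600 genes in the count table, and all 10 passed the filter on low counts and were among the 16927 genes tested. After 2 intratumoral (IT) injections of exoCDN2, 9 of the 10 rose against PBS, where 8.87% of all genes tested passed the test as higher. The rise was 3.58-fold for Lck and between 8.44-fold and 55.5-fold for the others, sizes that depended on which PBS tumors were used. Cd4 was the exception, at 1.71-fold, and did not pass the test. After 1 injection, exoCDN2 moved none of the 10 past the test, where 2.62% of all genes tested passed in either direction. Most lay below PBS, however, and DESeq2, an alternative test, called 2 of them, both lower. The highest amount of free CDN2 lowered 4 of the 10, where 0.620% of all genes tested passed as lower. These 4 results depended on single tumors and on which PBS tumors were used, while DESeq2 called 6 of the 10, all lower.

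B16F10, a mouse melanoma cell line, was grown under the skin of the right flank of young female C57BL/6 mice, and whole tumors were taken 24 h after the last IT injection. CDN2 (CL656 in the sample labels) is a cyclic dinucleotide that activates STING, an innate immune receptor that drives type I interferon, exoCDN2 (exoCL656) is CDN2 loaded into extracellular vesicles (EVs) made by HEK293 cells, a human embryonic kidney line, that overexpress the surface protein PTGFRN, and EVs without CDN2 served as vesicle controls (unloaded EVs). After 1 dose there were groups for PBS, CDN2 at 20 µg, CDN2 at 100 µg, exoCDN2 at 0.1 µg and unloaded EVs. The groups given 2 doses, 3 days apart, received PBS, exoCDN2 (0.1 µg), CDN2 (20 µg) or CDN2 in an amount that the labels do not give. Each of the 9 groups held 2 tumors, so 18 tumors were compared, and exoCDN2 and free CDN2 were given in different amounts wherever both amounts are stated. For 1 gene in 2 tumors against 2, the smallest two-sided p of an exact permutation test is 0.33, so the tests below rest on the spread shared across groups.

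The T cell receptor binds peptide on MHC molecules, but its antigen-binding chains have no signalling tail of their own. The CD3 delta, epsilon and gamma chains and the zeta homodimer carry the signal into the cell, and no receptor reaches the surface without them. CD8, a dimer of alpha and beta chains on cytotoxic T cells, and CD4, on helper and regulatory T cells, bind MHC class I and class II and bring the kinase LCK to the receptor, where it phosphorylates the CD3 and zeta tails. CD2 is an adhesion receptor that also costimulates, and CD5 dampens receptor signalling. Several of these genes are not limited to T cells: NK cells also use the zeta chain, CD2 and LCK, and some mouse dendritic cells carry CD8 alpha or CD4.

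Cd3d (chromosome 9, 44981786 to 44987339, plus strand), Cd3g (44969572 to 44980431, minus strand) and Cd3e (44998740 to 45009627, minus strand) lie in 1 cluster of GRCm38. Cd3d and Cd3g are transcribed away from each other, with 1354 bases between the genes. Cd8b1 (chromosome 6, 71322788 to 71337494) and Cd8a (71373427 to 71379173) are neighbours on the plus strand, 35932 bases apart, while Cd4 (124864692 to 124888221, minus strand) is far away on the same chromosome. Cd247 lies on chromosome 1 (165788681 to 165877277), Cd2 on chromosome 3 (101275899 to 101287939), Lck on chromosome 4 (129548344 to 129573641) and Cd5 on chromosome 19 (10717116 to 10739002). All 10 are annotated as protein coding. Cd247 overlaps Pou2f1 on the opposite strand, which had a mean count of 952 against 45.4 for Cd247, and the strand of the libraries is not given in the sources used here, so reads of these genes may not be fully told apart.

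RefSeq promoters (GRCm38.p6) were matched to 7 of the 10 genes, with 2 start sites for Lck. The 250 bases before the start are shown for the CD3 cluster, whose genes moved together, and for both starts of Lck, which moved less, with the 6-letter ETS motif GGAAGT or its reverse complement ACTTCC in capitals.
Cd3d, chr9:44981536-44981785, plus strand: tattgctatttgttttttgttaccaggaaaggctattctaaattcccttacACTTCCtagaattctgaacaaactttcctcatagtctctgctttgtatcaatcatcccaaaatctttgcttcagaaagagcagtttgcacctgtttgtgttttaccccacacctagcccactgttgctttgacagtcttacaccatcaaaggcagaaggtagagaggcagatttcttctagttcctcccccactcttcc
Cd3g, chr9:44980432-44980681, minus strand: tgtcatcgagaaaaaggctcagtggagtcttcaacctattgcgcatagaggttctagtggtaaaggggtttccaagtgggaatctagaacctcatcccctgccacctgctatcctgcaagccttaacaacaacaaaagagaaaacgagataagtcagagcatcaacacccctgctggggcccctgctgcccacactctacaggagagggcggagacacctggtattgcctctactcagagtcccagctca
Cd3e, chr9:45009612-45009861, minus strand: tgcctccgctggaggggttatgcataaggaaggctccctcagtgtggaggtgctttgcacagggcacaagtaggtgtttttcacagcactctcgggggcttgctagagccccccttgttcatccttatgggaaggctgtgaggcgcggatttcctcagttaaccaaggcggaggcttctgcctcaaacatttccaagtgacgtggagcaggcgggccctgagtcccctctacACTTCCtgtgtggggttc
Lck, first start, chr4:129573642-129573891, minus strand: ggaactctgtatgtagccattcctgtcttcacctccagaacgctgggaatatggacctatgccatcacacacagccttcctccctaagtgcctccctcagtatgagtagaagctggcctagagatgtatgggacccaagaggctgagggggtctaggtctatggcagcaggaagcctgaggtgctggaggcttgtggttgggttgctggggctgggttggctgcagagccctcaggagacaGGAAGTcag
Lck, second start, chr4:129558373-129558622, minus strand: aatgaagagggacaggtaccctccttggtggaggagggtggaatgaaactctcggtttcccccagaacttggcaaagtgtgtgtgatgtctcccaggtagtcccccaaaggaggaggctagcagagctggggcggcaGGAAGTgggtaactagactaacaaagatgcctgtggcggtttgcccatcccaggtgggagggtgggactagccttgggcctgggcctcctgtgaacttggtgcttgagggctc
This 6-letter ETS motif was present on either strand in 6 of the 8 promoters, those of Cd247, Cd3d, Cd3e, Cd5 and both of Lck, against 19.7% of all 32851 promoters of this length. It began 199 bases before the start in Cd3d, 18 in Cd3e, and 9 and 113 in Lck. The E-box CAGGTG (or CACCTG) was found in 5 of the 8, against 17.2% of all promoters, the GATA motif AGATAA (or TTATCT) in 1, that of Cd3g, against 9.99%, and the RUNX motif TGTGGT (or ACCACA) in 1, of Lck, against 14%. No match of 1 motif overlapped a match of another in these promoters, and the motifs were picked after the sequences had been seen. Shorter or other forms of these motifs were not searched for, so a promoter without a match may still hold one of them. The matches are descriptions of the letters only.

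Total expected counts lay between 38671428 and 65983630 in all tumors except 1 given 2 doses of CDN2 (20 µg), which had 21608895. Melanocyte markers (8 genes) summed to between 21171 and 26762 CPM (counts scaled to library size with TMM factors) in 7 of the 9 groups, to 15981 and 17289 CPM after 2 doses of exoCDN2, and to 7713 and 13654 CPM after 2 doses of CDN2 (20 µg). In the last group skeletal muscle markers (6 genes) summed to 2356 and 4646 CPM, against at most 525 CPM in any other tumor. Keratinocyte markers (6 genes) summed to 73.8 and 134 CPM after 1 dose of PBS and to 2.47 and 2.67 CPM after 2 doses of PBS. Since whole tumors were sequenced, a change in the number of T cells cannot be told apart from a change in the RNA of each cell.

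The CD3 chains were highest after 2 doses of exoCDN2 in every case. Cd3d stood at 4.01 and 3.31 CPM in the exoCDN2 tumors, at 0.225 and 0.0876 CPM in the PBS tumors of 2 doses, and at 1.63 and 1.54 CPM after 2 doses of CDN2 (20 µg). Cd3e was 3.80 and 2.49 CPM with exoCDN2, 0.102 and 0.131 CPM with PBS, and 1.12 and 0.557 CPM with CDN2. Cd3g was 6.99 and 5.07 CPM with exoCDN2, 0.327 and 0.0219 CPM with PBS, and 1.79 and 1.59 CPM with CDN2. For all 3 chains the exoCDN2 tumors lay above every other tumor of the study, and the CDN2 tumors lay between exoCDN2 and PBS with no overlap. The PBS values rest on few reads, with 4 and 11 counts for Cd3d, 5 and 6 for Cd3e, and 1 and 16 for Cd3g. The zeta chain gene Cd247 was 3.54 and 2.45 CPM after 2 doses of exoCDN2, 2.19 and 1.83 CPM after CDN2, and 0.225 and 0.109 CPM after PBS. The gap between exoCDN2 and CDN2 was smaller for the zeta chain than the gap of either from PBS.

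**Figure D1:**
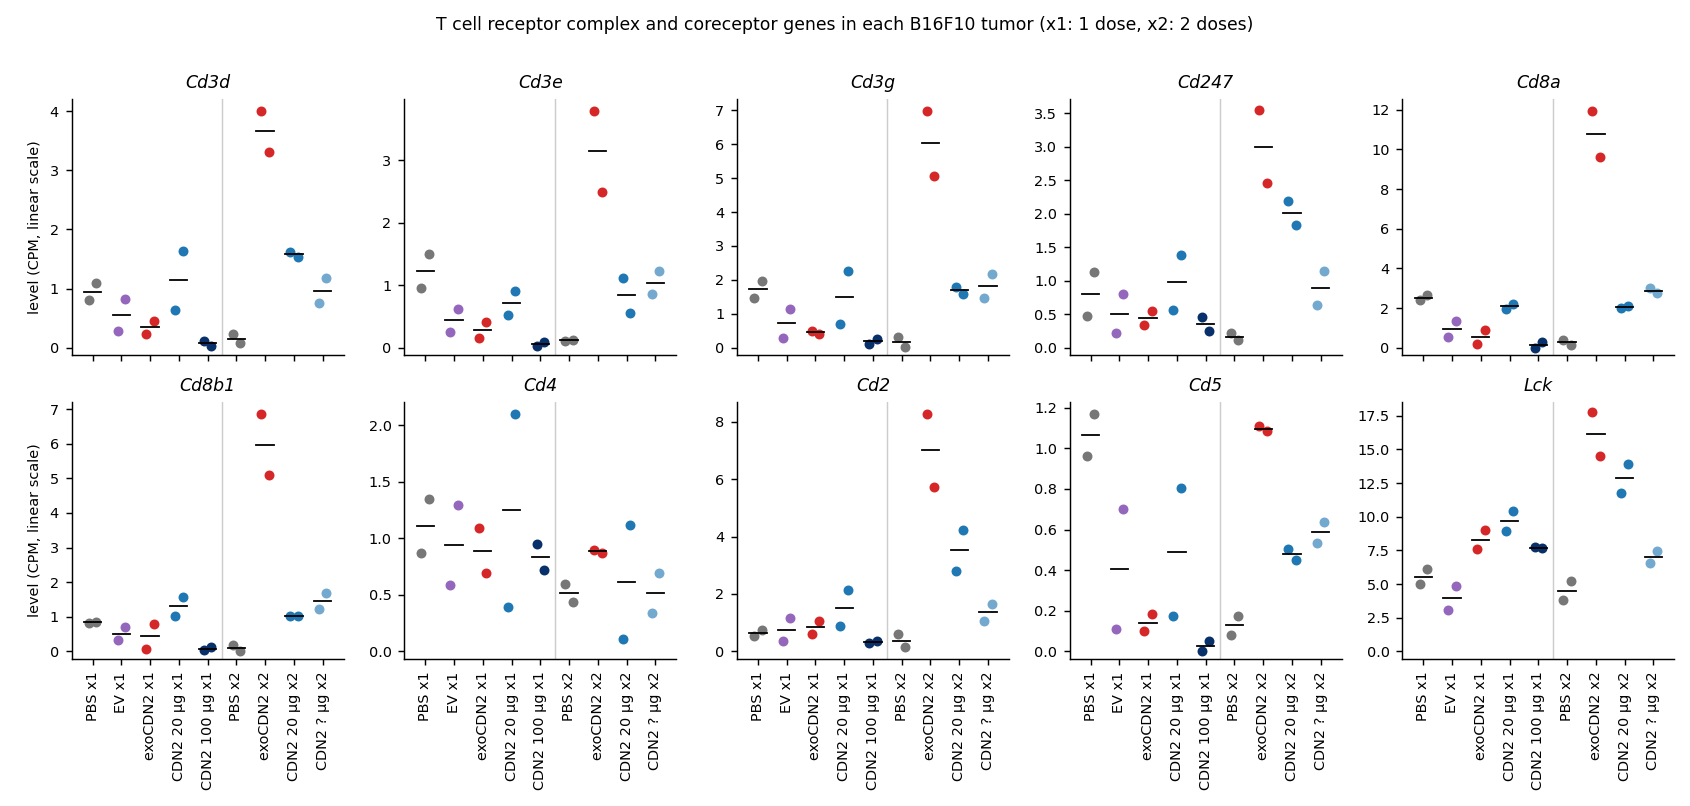
Level of each gene in each tumor (CPM, linear axis from 0), with 2 points per group and the group mean as a line. Groups given 1 dose (x1) stand left of the grey line and groups given 2 doses (x2) right of it, and "? µg" is the CDN2 group without a stated amount. The 2 exoCDN2 x2 tumors are the highest of all 18 for every gene except Cd4 and Cd5.

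Of the coreceptors, CD8 separated the groups given 2 doses and CD4 did not. Cd8a, the alpha chain, was 11.96 and 9.61 CPM after 2 doses of exoCDN2, 0.388 and 0.153 CPM after PBS, and 2.02 and 2.10 CPM after CDN2 (20 µg). Cd8b1, the beta chain, was 6.86 and 5.09 CPM with exoCDN2, 0.184 and 0.0219 CPM with PBS, and 1.01 and 1.01 CPM with CDN2. Outside the exoCDN2 pair, the highest level in any tumor was 3.02 CPM of Cd8a and 1.68 CPM of Cd8b1. Cd4 was 0.896 and 0.874 CPM with exoCDN2, 0.592 and 0.438 CPM with PBS, and 0.112 and 1.11 CPM with CDN2. The CDN2 pair straddled both other groups, its lower tumor holding only 2 counts of Cd4. The highest Cd4 level of the study, 2.11 CPM, was in a tumor given 1 dose of CDN2 (20 µg).

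Cd2 was 8.28 and 5.74 CPM after 2 doses of exoCDN2, 0.592 and 0.153 CPM after PBS, and 2.80 and 4.25 CPM after CDN2 (20 µg). Cd5 was 1.11 and 1.09 CPM with exoCDN2, 0.0816 and 0.175 CPM with PBS, and 0.505 and 0.451 CPM with CDN2. Unlike the other called genes, Cd5 was as high after 1 dose of PBS, at 0.963 and 1.17 CPM, as after 2 doses of exoCDN2, and these values overlapped. Lck was 17.8 and 14.5 CPM with exoCDN2, 3.78 and 5.23 CPM with PBS, and 11.8 and 13.9 CPM with CDN2. Lck had at least 141 counts in every tumor and never fell below 3.05 CPM, whereas each CD3 chain had 1 tumor at 1 count. Per kilobase of exon, the mean level after 2 doses of exoCDN2 was 5.51 CPM for Lck, 4.03 for Cd8b1, 4.02 for Cd2, 2.97 for Cd8a, 2.02 for Cd3d, 1.85 for Cd3g, 0.771 for Cd3e, 0.563 for Cd247, 0.223 for Cd5 and 0.219 for Cd4. Some neighbours in this order differed by less than the spread between the 2 tumors in 1 or both genes. These were Cd8b1 and Cd2, Cd2 and Cd8a, Cd3d and Cd3g, Cd3e and Cd247, and Cd5 and Cd4. The order also depends on the exon lengths used, which count all annotated exons of a gene.

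Whether 2 doses of exoCDN2 changed T cell genes was asked against the PBS tumors given 2 doses, and 9 of the 10 genes were called higher. Calls required a ratio over 2 and a Benjamini-Hochberg adjusted p under 0.05 in the quasi-likelihood test of edgeR, and 8.87% of all genes tested were called higher in this comparison. The log2 fold changes were 4.51 for Cd3d, 4.72 for Cd3e and 5.07 for Cd3g (standard errors 0.69, 0.68 and 0.88, adjusted p of 0.00099, 0.00065 and 0.0022 by the edgeR test). The CD8 chains had a log2 fold change of 5.29 ± 0.87 (SE) for Cd8a and 5.80 ± 0.94 (SE) for Cd8b1 (adjusted p of 0.0015 and 0.0014 by the edgeR test), or 39.2-fold and 55.5-fold. Cd247 and Cd2 followed at 4.13 and 4.21, Cd5 at 3.08 and Lck at 1.84, the last with the smallest standard error (0.25, adjusted p = 0.00048 by the edgeR test). Cd4, with a log2 fold change of 0.77 ± 0.79 (SE), was not called (adjusted p = 0.55 by the edgeR test), although both exoCDN2 tumors lay above both PBS tumors. The median over the 10 genes was 4.36, against 0.01 over all genes tested.
Each of the 4 tumors could be left out with 8 of the 9 calls kept. Cd5 was the call lost in each case, its adjusted p by the edgeR test then lying between 0.069 and 0.14. The sizes rested on the PBS tumors: without the first, the log2 fold change was 7.93 for Cd3g, 7.92 for Cd8b1 and 6.11 for Cd8a, and without the second 4.19, 4.999 and 4.79. With the PBS tumors of both dose numbers pooled, 6 of the 10 were called and Cd3e, Cd3g and Cd5 were lost, and the log2 fold change was 2.94 for Cd8a, 3.65 for Cd8b1 and 3.78 for Cd2. The order of the genes by size therefore changed with the PBS tumors. Keratinocyte markers also lay above these PBS tumors, with a median log2 fold change of 6.86 (6 of 6 positive, 1 called), and summed to 4.07 and 88.1 CPM in the exoCDN2 tumors. Their part in the values was not tested.

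Free CDN2 (20 µg, 2 doses) was set against the same PBS tumors, so the comparisons share their controls. It raised 8 of the 10 genes, where 20.0% of all genes tested were called higher. The log2 fold changes were 3.31 for Cd3d, 2.77 for Cd3e, 3.24 for Cd3g and 3.55 for Cd247 (SE from 0.69 to 0.87, adjusted p between 0.0019 and 0.0093 by the edgeR test). Cd8a rose by 2.91 and Cd8b1 by 3.24 on the log2 scale (adjusted p of 0.013 and 0.014 by the edgeR test), Cd2 by 3.24 and Lck by 1.52. Cd5, at 1.88 ± 0.93 (SE), and Cd4, at 0.39 ± 0.83 (SE), were not called (adjusted p of 0.11 and 0.72 by the edgeR test). The median of the 10 was 3.07, against 0.00 over all genes. Without the second PBS tumor, 5 of the 10 were called, and with all 4 PBS tumors pooled, 3 were called (Cd247, Cd2 and Lck). Melanocyte markers were lower and muscle markers higher in these CDN2 tumors than with PBS, 5 of 8 and 5 of 6 passing the test. Of all genes tested, 1786 of 16927 were called lower. Keratinocyte markers lay above PBS, with a median log2 fold change of 4.14 (6 of 6 positive, 0 called). The part of these markers in the values of the T cell genes was not tested.

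**Figure D2:**
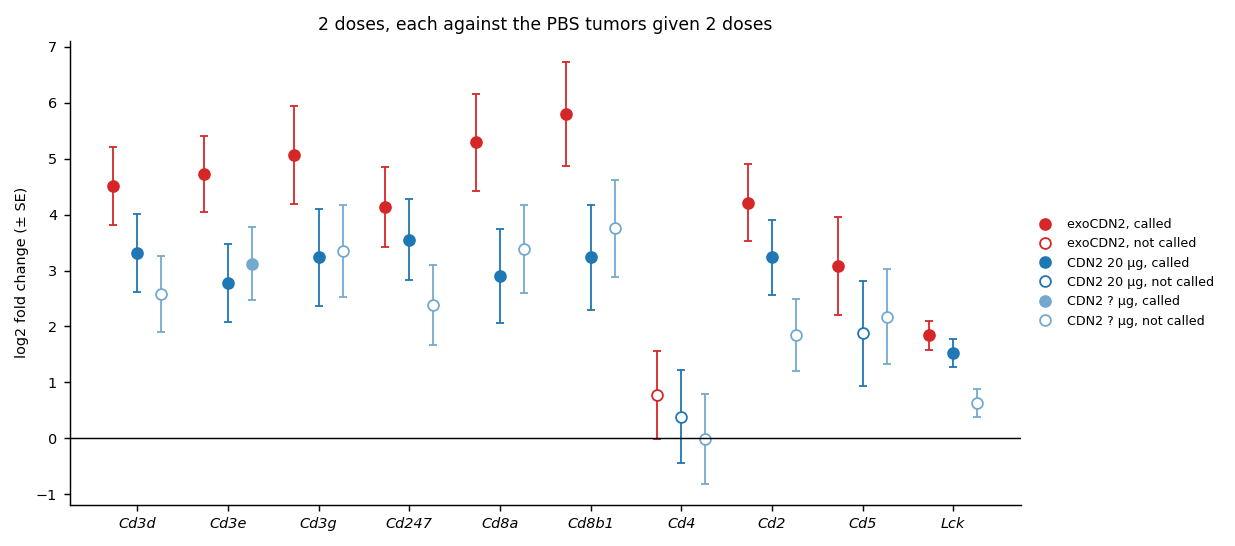
Log2 fold change (± SE, edgeR) of each gene after 2 doses against the PBS tumors given 2 doses, for exoCDN2 (red), CDN2 20 µg (dark blue) and CDN2 without a stated amount (light blue). Filled points were called, 9, 8 and 1 of the 10 genes, and Cd4 lies near 0 in all 3 comparisons.

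Compared directly after 2 doses, exoCDN2 (0.1 µg) gave higher levels than CDN2 (20 µg) for Cd3e and both CD8 chains, 3 of the 10 genes, where 7.34% of all genes tested were called higher. The log2 fold changes were 1.95 ± 0.58 (SE) for Cd3e, 2.38 ± 0.74 (SE) for Cd8a and 2.56 ± 0.77 (SE) for Cd8b1 (adjusted p of 0.023, 0.027 and 0.023 by the edgeR test), or 3.86-fold, 5.21-fold and 5.88-fold. Cd3d (1.21 ± 0.58, SE) and Cd3g (1.83 ± 0.74, SE) did not pass (adjusted p of 0.12 and 0.068 by the edgeR test). Cd247 (0.58), Cd2 (0.97), Cd5 (1.20), Cd4 (0.39) and Lck (0.32) did not pass either, with SE between 0.24 and 0.80. All but Cd4 were higher in both exoCDN2 tumors than in either CDN2 tumor, as were 34.4% of all genes. The calls depended on single tumors: without the first or the second exoCDN2 tumor 0 of the 10 were called, without the first CDN2 tumor only Cd3e, and without the second only Cd8a and Cd8b1. In a fit of these 4 tumors alone 0 were called. In the same comparison 7 of 8 neutrophil markers (median log2 fold change -4.02) and 5 of 6 muscle markers (median -4.18) were lower with exoCDN2. Of all genes tested, 2037 of 16927 were called lower. Melanocyte markers were higher in 2 of 8 cases (median 0.87), and keratinocyte markers in 1 of 6 (median 2.29, 5 of 6 positive). The part of these markers in the values was not tested.

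A single dose of exoCDN2 had no gene of the 10 called against PBS, where 2.62% of all genes tested were called in either direction. The levels lay mostly below PBS. Cd3e was 0.159 and 0.414 CPM with exoCDN2 and 0.963 and 1.51 CPM with PBS, a log2 fold change of -2.12 ± 0.61 (SE, adjusted p = 0.091 by the edgeR test). Cd8a was 0.178 and 0.920 CPM against 2.41 and 2.65 CPM, with a log2 fold change of -2.22 ± 0.77 (SE, adjusted p = 0.17 by the edgeR test). Cd5 was 0.0991 and 0.184 CPM against 0.963 and 1.17 CPM, with a log2 fold change of -2.90 ± 0.87 (SE, adjusted p = 0.11 by the edgeR test). Both exoCDN2 tumors lay below both PBS tumors for these 3 genes, as they did for 36.2% of all genes, and the differences missed the threshold. At an unadjusted p under 0.05, 6 of the 10 differed, 5 lower and Lck higher, and DESeq2 called 2, Cd3e and Cd5, both lower. Lck, at 7.57 and 9.02 CPM against 4.97 and 6.14 CPM, had a log2 fold change of 0.58 ± 0.25 (SE, adjusted p = 0.27 by the edgeR test). The median of the 10 was -1.22, against -0.02 over all genes. Keratinocyte markers also lay below these PBS tumors, with a median log2 fold change of -4.46 (6 of 6 negative, 0 called). They summed to 3.89 and 4.70 CPM in the exoCDN2 tumors, and their part in the values was not tested.

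A single dose of CDN2 (20 µg) likewise had 0 of the 10 genes called against PBS, where 3.14% of all genes tested were called in either direction, and DESeq2 also called 0. Cd8a was 1.96 and 2.22 CPM against 2.41 and 2.65 CPM with PBS, and Cd3d was 0.644 and 1.63 CPM against 0.809 and 1.09 CPM. Log2 fold changes ran from -1.14 for Cd5 to 1.23 for Cd2, with a median of 0.21. Only Lck, at 8.97 and 10.4 CPM and a log2 fold change of 0.80 ± 0.25 (SE), had an unadjusted p under 0.05 (adjusted p = 0.11 by the edgeR test). Keratinocyte markers lay below PBS here too, with a median log2 fold change of -4.73 (6 of 6 negative, 0 called). Their part in the values was not tested. Set against exoCDN2 after 1 dose, 0 of the 10 were called, where 0.608% of all genes tested were called in either direction. All 10 log2 fold changes of exoCDN2 against CDN2 were below 0, with a median of -1.47, 2 of them (Cd3d and Cd8a) at an unadjusted p under 0.05, and DESeq2 called 0.

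CDN2 (100 µg) lowered Cd3d, Cd3e, Cd8a and Cd5, 4 of the 10 genes, where 0.620% of all genes tested were called lower. In its 2 tumors Cd3d was 0.122 and 0.0247 CPM, Cd3e 0.0244 and 0.0989 CPM, and Cd8a 0 and 0.272 CPM, against at least 0.809 CPM of each in the PBS tumors. The log2 fold changes were -3.64 ± 0.78 (SE) for Cd3d, -4.27 ± 0.75 (SE) for Cd3e and -4.19 ± 0.92 (SE) for Cd8a (adjusted p of 0.027, 0.010 and 0.031 by the edgeR test). These tumors held 6 counts of Cd3d, 5 of Cd3e and 11 of Cd8a in all, so the depth limits these values. Cd5 had 0 and 2 counts against 44 and 59 with PBS, a ratio of 0.0229 with a 95% counting interval from 0.00274 to 0.0850 (adjusted p = 0.027 by the edgeR test). Cd3g (log2 fold change -3.20) and Cd8b1 (-3.46) did not pass (adjusted p of 0.078 and 0.097 by the edgeR test), and Cd247 stood at -1.18 and Cd2 at -0.997. Lck did not go with them: it was 7.76 and 7.64 CPM, above both PBS tumors, with a log2 fold change of 0.47 ± 0.25 (SE, adjusted p = 0.42 by the edgeR test). Cd4, at 0.952 and 0.717 CPM, overlapped with PBS. In this comparison keratinocyte markers lay lower too, with a median log2 fold change of -2.39 (6 of 6 negative, 0 called). What part they had in the values of the T cell genes was not tested.
The 4 calls were not stable to single tumors. Without the first CDN2 tumor or the second PBS tumor 0 were called, without the first PBS tumor 1 (Cd3e), and without the second CDN2 tumor 2 (Cd3e and Cd8a), and with the PBS tumors of both dose numbers pooled 0. Cd3d, Cd3e and Cd8a kept a log2 fold change of -2.87 or lower in each of these settings. Other settings gave more calls: DESeq2, no filter on low counts and only the groups compared each called 6 of the 10, all lower.

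**Figure D3:**
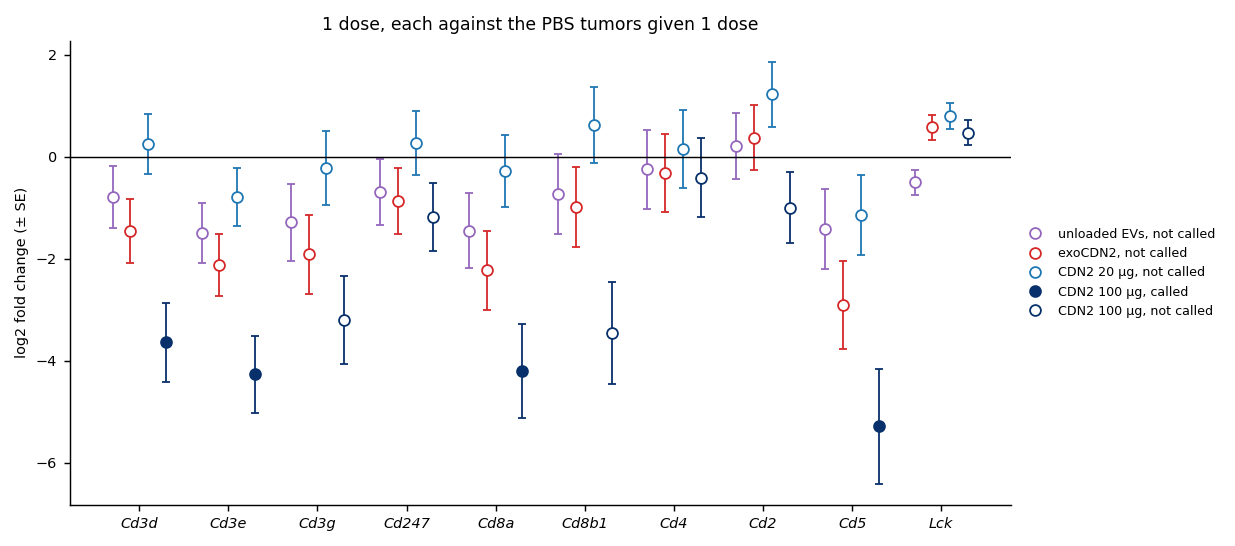
Log2 fold change (± SE, edgeR) of each gene after 1 dose against the PBS tumors given 1 dose, for unloaded EVs (purple), exoCDN2 (red), CDN2 20 µg (blue) and CDN2 100 µg (dark blue). The 4 filled points, all for CDN2 100 µg, were called, and Lck lies above 0 for the 3 groups that received CDN2.

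Unloaded EVs, the control for the vesicle, had 0 of the 10 genes called against PBS, where 0.00% of all genes tested were called by edgeR (0 of 16927, with 540 at an unadjusted p under 0.05). Among the 10, only Cd3e had an unadjusted p under 0.05, with 0.259 and 0.625 CPM against 0.963 and 1.51 CPM, and DESeq2 called 0. Of the 10 log2 fold changes 9 were below 0, with a median of -0.76, against 0.00 over all genes tested. For 6 of the 10, both EV tumors lay below both PBS tumors, as they did for 23.5% of all genes. The tumors given EVs differed widely from each other, with Cd5 at 0.108 and 0.700 CPM and Cd8a at 0.519 and 1.35 CPM. The lower value of the pair came from the same tumor for all 10 genes. Keratinocyte markers summed to 3.77 and 62.0 CPM in the EV tumors. Their median log2 fold change against PBS was -1.10 (5 of 6 negative, 0 called), and their part in the values was not tested.

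The PBS tumors differed between dose numbers. All 10 log2 fold changes of 2 doses against 1 were below 0, with a median of -2.77, against 0.01 over all genes tested. Cd3e fell by 3.38 on the log2 scale (SE 0.67, adjusted p = 0.030 by the edgeR test) and was the single gene called, where 1.05% of all genes tested were called lower. Cd8a went from 2.41 and 2.65 CPM to 0.388 and 0.153 CPM (adjusted p = 0.11 by the edgeR test), and 7 of the 10 had an unadjusted p under 0.05. DESeq2 called 6, all lower. Keratinocyte markers differed in the same direction, as given above, and their part in these values was not tested. Without the first or the second PBS tumor of 1 dose, or the second of 2 doses, 0 were called.
Without the first of 2 doses, Cd3g was called in place of Cd3e.

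Between 1 and 2 doses of exoCDN2, 8 of the 10 genes rose, where 5.10% of all genes tested were called higher. The log2 fold changes were 3.39 for Cd3d, 3.46 for Cd3e, 3.72 for Cd3g, 2.75 for Cd247, 4.31 for Cd8a, 3.81 for Cd8b1, 3.07 for Cd2 and 2.95 for Cd5 (SE from 0.61 to 0.87, adjusted p between 0.0054 and 0.046 by the edgeR test). Lck passed the p threshold but not the ratio limit, at 1.95-fold (adjusted p = 0.026 by the edgeR test), and Cd4 stood at -0.01. Without the first tumor of either exoCDN2 group 0 were called, and without the second tumor of 1 dose 4. For CDN2 (20 µg), 0 of the 10 were called between the doses, where 20.8% of all genes tested were called in either direction. At an unadjusted p under 0.05 there were 0, DESeq2 called 0, and the log2 fold changes ran from -0.88 for Cd4 to 1.24 for Cd2, with a median of 0.19. Without the second CDN2 tumor of 2 doses, Cd4 was called lower.

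These changes between doses were then taken relative to the change with PBS, since the PBS tumors differed too. Relative to PBS, the change with exoCDN2 was higher for 9 of the 10 genes, where 5.12% of all genes tested were called higher, with a log2 value of 7.51 ± 1.16 for Cd8a (SE, adjusted p = 0.0028 by the edgeR test). Keratinocyte markers moved with this term, with a median log2 value of 10.9 (6 of 6 positive, 2 called), and with that of CDN2 relative to PBS, with a median of 10.09 (6 of 6 positive, 1 called), and their part in the values was not tested. Relative to PBS, the change with CDN2 was higher for Cd3d, Cd3e, Cd3g and Cd247, 4 of the 10, where 11.7% of all genes tested were called higher, with log2 values between 3.05 and 3.56. Adding a replicate block to the fit lost Cd3g (adjusted p = 0.060 by the edgeR test) and left 3 called. Relative to CDN2, the change with exoCDN2 was higher for Cd3e, Cd8a and Cd8b1, 3 of the 10, where 2.97% of all genes tested were called higher, with log2 values of 3.28, 4.32 and 4.17. These calls rested on single tumors. For exoCDN2 relative to PBS, 5 were called without the first exoCDN2 tumor of 1 dose. For CDN2 relative to PBS, 0 were called without the first CDN2 tumor of 1 dose or the second PBS tumor of 1 dose, 1 without the first CDN2 tumor or the second PBS tumor of 2 doses, and 2 without the first PBS tumor of 1 dose. For exoCDN2 relative to CDN2, 0 were called without either exoCDN2 tumor of 2 doses, either CDN2 tumor of 1 dose or the first exoCDN2 tumor of 1 dose, 1 without the first CDN2 tumor of 2 doses, and 5 without the second.

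In the CDN2 group of 2 doses without a stated amount, T cell genes lay above PBS, but only Cd3e was called, 1 of the 10, where 0.918% of the 17110 genes tested in 18 tumors were called higher. Cd3e was 0.857 and 1.23 CPM, with a log2 fold change of 3.13 ± 0.66 (SE, adjusted p = 0.038 by the edgeR test). Cd8a, at 3.02 and 2.74 CPM, had a log2 fold change of 3.39 ± 0.78 (SE) and Cd8b1, at 1.22 and 1.68 CPM, one of 3.75 ± 0.87 (SE), and neither passed (adjusted p of 0.066 and 0.067 by the edgeR test). Except for Cd4, each gene was higher in both tumors than in either PBS tumor, as were 15% of all genes. DESeq2 called 5, all higher. Without the second CDN2 tumor or the second PBS tumor 0 were called, without the first CDN2 tumor 4, and with pooled PBS tumors 0.

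The balance of CD8 and CD4 was read as the ratio of Cd8a to Cd4 per kilobase within a tumor, with no test. It was 14.8 and 12.2 after 2 doses of exoCDN2, 0.726 and 0.388 after PBS, 20.0 and 2.09 after CDN2 (20 µg), and 9.77 and 4.39 in the group without a stated amount. The value of 20.0 rests on 2 counts of Cd4. After 1 dose it was 3.05 and 2.18 with PBS, 0.985 and 1.15 with unloaded EVs, 0.181 and 1.48 with exoCDN2, 5.47 and 1.17 with CDN2 (20 µg), and 0 and 0.421 with CDN2 (100 µg). The exoCDN2 tumors of 2 doses thus lay far above those of 1 dose, with no overlap. The level of Cd4 relative to the mean of Cd3d, Cd3e and Cd3g per kilobase also varied. It was 0.126 and 0.163 after 2 doses of exoCDN2, 1.77 and 3.74 after PBS and 0.0485 and 0.563 after CDN2 (20 µg). After 1 dose it was 0.576 and 0.636 with PBS, 2.52 and 1.07 with exoCDN2, and 6.41 and 4.70 with CDN2 (100 µg). Cd4 thus did not follow the CD3 chains, and which cells gave the Cd4 RNA was not tested. The ratio of Cd8a to Cd8b1 stayed between 0.480 and 1.27 per kilobase in 16 of the 18 tumors, the others being 1 tumor of CDN2 (100 µg) with no Cd8a count and 1 PBS tumor with a single Cd8b1 count.

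The CD3 chains were also set against Ptprc, which encodes CD45 and is carried by all leukocytes, a ratio chosen after the values had been seen. The mean of Cd3d, Cd3e and Cd3g per kilobase was 28.9% and 31.9% of Ptprc after 2 doses of exoCDN2, 12.9% and 10.3% after PBS, 22.8% and 20.5% after CDN2 (20 µg), and 28.1% and 42.7% in the CDN2 group without a stated amount, which overlapped with exoCDN2. After 1 dose it was 45.5% and 44.5% with PBS, 16.4% and 28.3% with unloaded EVs, 4.58% and 9.32% with exoCDN2, 26.7% and 31.5% with CDN2 (20 µg) and 2.80% and 3.12% with CDN2 (100 µg). The ratio was lowest with CDN2 (100 µg) and with 1 dose of exoCDN2, and highest with 1 dose of PBS. Its absolute size depends on the exon lengths used, so it compares tumors and is not a share of leukocytes. Ptprc itself rose with 2 doses of exoCDN2 against PBS, with a log2 fold change of 3.47 ± 0.47 (SE, adjusted p = 0.00045 by the edgeR test), less than each CD3 chain.

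**Figure D4:**
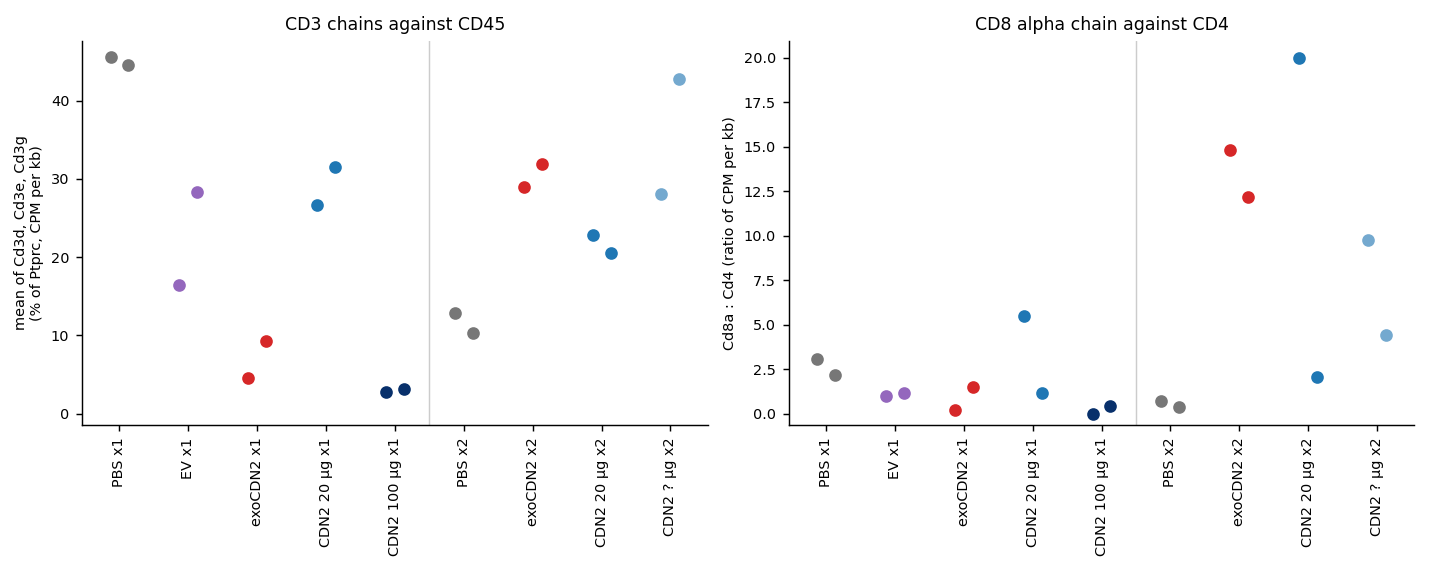
Left, mean CD3 chain level as a percent of Ptprc (CPM per kilobase of exon). Right, ratio of Cd8a to Cd4 (CPM per kilobase). Each point is 1 of the 2 tumors of a group on a linear axis from 0, and the exoCDN2 x2 tumors stand at 28.9% and 31.9% on the left and at 14.8 and 12.2 on the right.

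Across the 18 tumors, the members moved together except Cd4 and in part Lck. Pearson's r between the log2 CPM of a gene and the mean of the other 9 lay between 0.86 (Cd5) and 0.96 (Cd3g) for the CD3 chains, Cd247, CD8, Cd2 and Cd5, was 0.60 for Lck and was 0.10 for Cd4. Without the exoCDN2 tumors of 2 doses (16 tumors) it was 0.39 for Lck and 0.04 for Cd4, and at least 0.82 for the others. These values are descriptions, since tumors of 1 group share their treatment and low counts share the depth of the library. Among 12967 genes with a mean of at least 1 CPM, the 8 outside the list whose log2 CPM followed the mean of the 10 most closely over the 18 tumors were Cxcr6 (r = 0.96), a chemokine receptor of resident T cells and NK cells, Il21r (0.96), Sh2d2a (0.95), an adaptor that binds LCK, Trbc2 (0.95), Clec12a (0.95), a receptor of myeloid cells, Il12rb1 (0.95), Nkg7 (0.95), a protein of cytotoxic granules, and Ptpn22 (0.94), a phosphatase of receptor signalling. The median r over these candidates was -0.02.

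The antigen-binding chains of the receptor were read through the constant regions, of which 4 of 7 listed genes were tested. After 2 doses of exoCDN2 all 4 rose against PBS: Trac (alpha chain) by 3.78, Trbc1 and Trbc2 (beta chain) by 3.63 and 3.98, and Trdc (delta chain) by 4.17 on the log2 scale, with a median of 3.88. Of all genes tested, 8.87% were called higher in this comparison. Trac was 3.76 and 3.54 CPM with exoCDN2, 0.347 and 0.175 CPM with PBS and 0.280 and 0.796 CPM with CDN2 (20 µg), so that CDN2 overlapped with PBS. With CDN2, 3 of the 4 rose, Trdc by 4.88, while Trac, at 1.12 ± 0.68 (SE), did not pass (adjusted p = 0.19 by the edgeR test). Trbc1 and Trbc2 are near-identical copies, so their separate values are uncertain. With CDN2 (100 µg), Trbc2 had a log2 fold change of -3.30 (adjusted p = 0.037 by the edgeR test) and was the only one of the 4 called, as lower. There 0.620% of all genes tested were called lower, and Trdc had no count in either CDN2 tumor.

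Of 30 other genes of receptor signalling, 29 were tested and 20 rose after 2 doses of exoCDN2, with 0 lower and a median log2 fold change of 3.21, where 8.87% of all genes were called higher. With 2 doses of CDN2 (20 µg), 17 rose and 2 fell, with a median of 1.88, where 20.0% of all genes were called higher and 1786 of 16927 lower. Compared directly, 9 were higher and 1 lower with exoCDN2, where 7.34% of all genes were called higher and 2037 of 16927 lower. The 6 with the highest mean CPM, Csk, Nfatc2, Plcg1, Ptpn6, Fyn and Bcl10, did not follow the CD3 chains: with exoCDN2 only Ptpn6, a phosphatase, rose, by 1.15, and Csk, the kinase that restrains LCK, stood at -0.26. With CDN2, Nfatc2 and Plcg1 were the 2 that fell, by 1.29 and 1.13 on the log2 scale. Of the genes closest to LCK, chosen after their values were seen, Zap70, the kinase recruited to the phosphorylated CD3 tails, rose by 4.35 and Lat, the scaffold it phosphorylates, by 2.66 after 2 doses of exoCDN2. With CDN2 (100 µg), 5 of the 29 fell and 0 rose, with a median of -0.71, where 0.620% of all genes were called lower.

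Other T cell genes (18) rose in 14 cases after 2 doses of exoCDN2 and in 15 after CDN2 (20 µg). These counts, and those of the other cell types that follow, stand against 8.87% of all genes called higher with exoCDN2 and 20.0% with CDN2. NK cell markers (8), of a cell type that shares Cd247, Cd2 and Lck with T cells, rose in 8 and 5 cases, and summed to 18.9 and 29.5 CPM with exoCDN2, 5.27 and 16.2 CPM with CDN2, and 1.58 and 2.10 CPM with PBS. All 8 had counts in every group, and their part in the values of Cd247, Cd2 and Lck was not tested. B cell markers were called higher in 0 and 1 of the 4 tested, and their sum lay between 1.90 and 4.90 CPM in all 18 tumors. Macrophage markers (10) rose in 6 and 8 cases, neutrophil markers (8) in 6 and 8, and dendritic cell markers (9 tested) in 0 and 0, with 1 and 2 lower. Of all 16927 genes tested, 419 were called lower with exoCDN2 and 1786 with CDN2. With CDN2 (100 µg), where the CD3 chains summed to 0.269 and 0.371 CPM, NK markers summed to 0.879 and 1.11 CPM, against 1.93 and 2.75 CPM with PBS. Their median log2 fold change was -2.26, with 6 of 8 below 0 and 0 called by edgeR, so they lay in the same direction as the CD3 chains.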

How the data were processed

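Whole B16F10 tumors were profiled by RNA sequencing. The authors deposited 1 table of RSEM expected counts per gene (mm10), made with the OmicSoft pipeline, of which 8.75% to 12.7% of values per tumor were not whole, and these were rounded. Groups were taken from the labels, the 100 µg amount from sample titles. Genes were kept by filterByExpr of edgeR, with a minimum count of 10, scaled to library size, in at least 2 tumors and a total of at least 15. TMM scaling, CPM and quasi-likelihood tests were run with edgeR 4.0.16 (R 4.3.3). The fit held 16 tumors (8 residual degrees of freedom), and all 18 only for the CDN2 group without a stated amount. In each of 15 comparisons, Benjamini-Hochberg adjustment covered all genes tested, and calls needed a ratio over 2 with adjusted p under 0.05. Standard errors (SE) were derived from the test, as the absolute log2 fold change divided by the square root of the quasi-likelihood F. The fit was tested on simulated data. The 10 genes and the lists were chosen with earlier results of these data known. Named beside them were the 8 genes most alike, and the 6 highest in mean CPM of each receptor list.

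Alternatives were DESeq2 1.42.0, RLE factors, no filter, only the groups compared, all 18 tumors, no ratio limit, a replicate block, pooled PBS tumors and leaving out each tumor. Levels used Python 3.11.15, and log2 CPM a prior count of 2. The study gives 2 biological replicates per group. The aligner settings and library strand are not given in the sources used here. Levels per kilobase used the summed length of all annotated exons of a gene in GRCm38, overlaps counted once. This length can exceed that of the mRNA, so levels compared between genes depend on it. Intervals of ratios cover counting error only.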

Additional observations from a re-analysis of the deposited data

Results flagged for a closer look

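The change from 1 to 2 doses differed between treatments, by the interaction term of the edgeR fit. Relative to the change with PBS, the log2 change with exoCDN2 was larger by 5.96 for Cd3d, 6.84 for Cd3e, 6.98 for Cd3g, 4.997 for Cd247, 7.51 for Cd8a, 6.78 for Cd8b1, 3.83 for Cd2, 5.98 for Cd5 and 1.26 for Lck. Relative to PBS, the log2 change with CDN2 (20 µg) was larger by 3.05 for Cd3d, 3.56 for Cd3e, 3.46 for Cd3g and 3.29 for Cd247. Relative to CDN2 (20 µg), the log2 change with exoCDN2 was larger by 3.28 for Cd3e, 4.32 for Cd8a and 4.17 for Cd8b1. In these 3 sets, 5.12%, 11.7% and 2.97% of all genes tested were called higher, in that order. The calls changed with single tumors, as given above, and the last set had 0 with only the groups compared in the fit. Keratinocyte markers moved with the first 2 sets, and their part in the values was not tested. Levels after 1 and 2 doses came from different tumors, and the PBS tumors of 2 doses, which enter the first 2 sets, had the lowest Cd3g and Cd8b1 levels of the study, at 0.0219 CPM each in 1 tumor. The groups of 2 tumors were too small to be searched for outlying samples.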

How the results depend on the processing

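With 2 tumors per group and few counts in PBS and CDN2 (100 µg) tumors, the calls depended on single tumors and on the filter. Of the values for single genes under settings that kept all tumors, 18 reversed, 24 lost and 68 gained the threshold, and 999 kept both direction and side of the threshold. The cause was not tested.

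Without the filter on low counts, the calls among the 10 genes were 6 for exoCDN2 against CDN2 (20 µg) after 2 doses, 4 for exoCDN2 against PBS after 1 dose, 1 for EVs, 4 for exoCDN2 against CDN2 after 1 dose, 7 for PBS between doses, 1 for CDN2 between doses, 8 for CDN2 without a stated amount, 8 for CDN2 relative to PBS and 7 for exoCDN2 relative to CDN2. With only the groups compared in the fit they were 0, 5, 3, 4, 2 and 0 for exoCDN2 against CDN2 after 2 doses, exoCDN2 after 1 dose, PBS between doses, CDN2 without a stated amount, CDN2 relative to PBS and exoCDN2 relative to CDN2. DESeq2 called 2 for exoCDN2 after 1 dose, 6 for PBS between doses, 5 for CDN2 without a stated amount and 5 for exoCDN2 relative to CDN2. With pooled PBS tumors, 3 were called for CDN2 (20 µg, 2 doses), 0 for CDN2 (100 µg) and 0 for CDN2 without a stated amount. The log2 ratio of CD8 to CD4 after 2 doses of exoCDN2 was 4.18 with Cd8b1 in place of Cd8a.

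The following directions reversed. With pooled PBS tumors, the log2 fold change was -0.28 for Cd4 and -0.33 for Cd5 with CDN2 (20 µg, 2 doses), 0.13 for Cd4 with exoCDN2 (1 dose), 0.078 for Cd3e, 0.63 for Cd3g and 0.57 for Cd8a with CDN2 (20 µg, 1 dose), 0.036 for Cd4 with CDN2 (100 µg), 0.040 for Cd247, 0.10 for Cd8b1 and 0.20 for Cd4 with EVs, and -0.029 for Cd5 with CDN2 without a stated amount. For CDN2 between doses, Cd8a was 0.012 by DESeq2, 0.018 with RLE factors and 0.0015 with only the groups compared, and Cd5 was 0.0036 with RLE factors. For CDN2 without a stated amount, Cd4 was 0.011 by DESeq2 and 0.0017 with RLE factors.

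The labels give replicate numbers but not that a number marks a shared batch, and same-numbered tumors deviated together with a mean correlation of 0.0136 (range -0.184 to 0.319), so the numbers were not taken to pair the tumors. With the replicate block, 3 genes were called for CDN2 relative to PBS in place of 4, and Cd5 for CDN2 between doses was 0.13 on the log2 scale. The other 14 comparisons had equal counts of calls with the block.

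Leaving out each tumor in turn, the calls ranged from 5 to 8 for CDN2 (20 µg) against PBS after 2 doses, 0 to 2 for exoCDN2 against CDN2, 0 to 2 for CDN2 (100 µg), 0 to 1 for PBS between doses, 0 to 8 for exoCDN2 between doses, 0 to 1 for CDN2 between doses, 0 to 4 for CDN2 without a stated amount, 5 to 8 for exoCDN2 relative to PBS, 0 to 5 for CDN2 relative to PBS and 0 to 5 for exoCDN2 relative to CDN2. The log2 values of Cd4 ranged from -2.22 to 1.10 for CDN2 (20 µg, 2 doses), -0.34 to 2.98 for exoCDN2 against CDN2 (2 doses), -0.69 to 0.030 for exoCDN2 (1 dose), -1.48 to 0.94 for CDN2 (20 µg, 1 dose), -0.93 to 0.22 for EVs, -1.22 to 1.16 for exoCDN2 against CDN2 (1 dose), -0.30 to 0.36 for exoCDN2 between doses, -3.49 to 0.74 for CDN2 between doses, -0.59 to 0.43 for CDN2 without a stated amount, -2.39 to 1.84 for CDN2 relative to PBS and -0.75 to 3.44 for exoCDN2 relative to CDN2. Cd2 ranged from -0.058 to 0.72 for exoCDN2 (1 dose) and -0.89 to 0.84 for EVs, and Cd247 from -1.89 to 0.061 for EVs. For CDN2 (20 µg, 1 dose), Cd3d ranged from -0.56 to 0.80, Cd3g from -1.31 to 0.41 and Cd247 from -0.50 to 1.01. For CDN2 between doses, Cd3d ranged from -0.087 to 1.27, Cd3e from -0.37 to 0.61, Cd3g from -0.47 to 1.25, Cd8a from -0.14 to 0.050 and Cd5 from -0.79 to 1.41.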
